A study of Mus musculus with 6 samples.

Results

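Immediate early genes are transcribed within minutes of a stimulus without the need for new protein. The set described here holds 10 of them: the transcription factor genes Fos, Fosb, Jun, Junb, Jund, Egr1, Ier2 and Atf3, the phosphatase gene Dusp1 and the mRNA decay factor gene Zfp36. They were chosen by name, with every probe set of the array whose annotation gave that single symbol, which found 12 of 45037 probe sets and all 10 genes among the 18194 measured. Jun and Jund had 2 probe sets each and the other genes 1. RNA was taken at postnatal day 15 from the whole pancreas of mice of the NMRI background, with 3 arrays of Prox1-OE animals (genotype Jojo-Prox1 with Ngn3-cre) and 3 of controls (Ngn3-cre alone), so the cre transgene was common to both groups. Ngn3 marks endocrine progenitors, so the cre driver addresses islet cells, while most RNA of whole pancreas is acinar. The series asked which genes and pathways respond to Prox1 overexpression in beta cells. The labels gave no handling time, dissection order or animal numbers, and p-values therefore measure only the spread between these samples.

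Fos and Fosb proteins pair with Jun, Junb or Jund through leucine zippers to form the AP-1 factor, and Atf3 joins the same network. MAP kinase signalling and calcium or cAMP signalling switch these genes on through serum response factor, its ternary complex partners and CREB. Dusp1 removes phosphate from MAP kinases and Zfp36 speeds the decay of mRNAs with AU-rich elements, so both act as brakes. Because the response is fast, handling of tissue before lysis is widely known to induce these genes, and their levels on single arrays are described here beside the comparison of genotypes.

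Upstream sequence is shown for 4 members that differed in how much they varied between arrays of one group. Fos spread most, Dusp1 and Atf3 were intermediate, and Jun spread least by its brighter probe set. The stretches are from RefSeq on mouse GRCm38.p6, written 5′ to 3′ on the gene's strand, and run from 120 bases to 1 base before the transcript start, or from 200 to 81 bases before it for Dusp1. They lie at chr12:85473770-85473889 on the plus strand for Fos, and on the minus strand at chr17:26508553-26508672 for Dusp1, chr1:191183334-191183453 for Atf3 and chr4:95052223-95052342 for Jun. Capitals mark exact matches to the letters searched on both strands: the cAMP response element (CRE) TGACGTCA, its core TGACG, the AP-1 site TGANTCA, the TATA box TATAAA, the EGR site GCGNGGGCG, and the CArG box bound by serum response factor. This core lies inside every full CRE.
Fos: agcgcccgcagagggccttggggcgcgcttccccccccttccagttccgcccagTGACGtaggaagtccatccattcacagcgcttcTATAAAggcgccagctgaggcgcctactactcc
Dusp1: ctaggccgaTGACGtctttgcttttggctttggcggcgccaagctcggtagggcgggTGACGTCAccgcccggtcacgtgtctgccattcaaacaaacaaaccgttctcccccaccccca
Atf3: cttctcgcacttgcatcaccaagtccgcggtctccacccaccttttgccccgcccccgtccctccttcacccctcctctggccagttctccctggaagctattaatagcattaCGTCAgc
Jun: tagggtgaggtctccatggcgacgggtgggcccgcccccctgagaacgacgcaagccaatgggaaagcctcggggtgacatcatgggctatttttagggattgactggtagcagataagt
Over the 250 bases before the start, which the RefSeq table gave for 8 of the 10 genes, 5 (Fos, Fosb, Junb, Atf3 and Dusp1) held the core TGACG, against 17.8% of 32851 windows in the table. Dusp1 also held the full CRE (1.55% of all windows), and Fos held the TATA box (12.4%). Fosb and Zfp36 held an EGR site (4.7%), and Zfp36 the CArG box (1.47%). The AP-1 letters were in 6.75% of all windows and in 0 of the 8. Exact letters within 250 bases leave out variant sites and sites farther upstream, so a gene without a match may still have a site. The 2 genes without a window were Egr1 and Ier2. These matches describe letters in a window. The 4 printed stretches were chosen by the spread of the genes, and that of Dusp1 lies farther upstream, where its matches are. Whether matches go with spread or level was not tested.

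The arrays resembled each other closely, with Pearson correlations of 0.987 to 0.994 and medians of 4.38 to 4.42 on the log2 scale of the deposited values. In principal components, Prox1-OE replicate 1 stood apart on the first (34.6% of variance) and control replicate 3 on the second (22.9%). Tissue identity was clear: the acinar genes Cela3b and Cpa1 read 14.57 or more on all arrays, and the hormone genes Ins2 and Gcg 11.91 or more. Prox1 itself averaged 5.14 ± 0.41 on the controls and 5.20 ± 0.19 on the Prox1-OE arrays (SD, n = 3), from a 3′ probe set that need not lie in the transgene's transcript. In whole tissue, fewer cells of a type and less RNA per cell cannot be told apart.

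No immediate early gene passed the threshold between the genotypes. In limma's fit over 18194 genes, 0 of the 10 had an adjusted p under 0.05, where 5 genes in all (0.0275%) did, and the same held for the 12 probe sets in limma's fit of all probe sets (0.0111% called; at an unadjusted p under 0.05, 1 of the 12 and 6.15% of all). At an unadjusted p under 0.05, 1 of the 10, Jun, was counted (6.65% of all genes), and Jun was also the 1 gene whose groups did not overlap (12.1% of all genes). The log2 differences, Prox1-OE minus control, were positive for 9 of the 10 (46.2% of all genes) and ran from -0.06 to 0.26, with a median of 0.12 beside -0.01 over all genes.

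**Figure D1:**
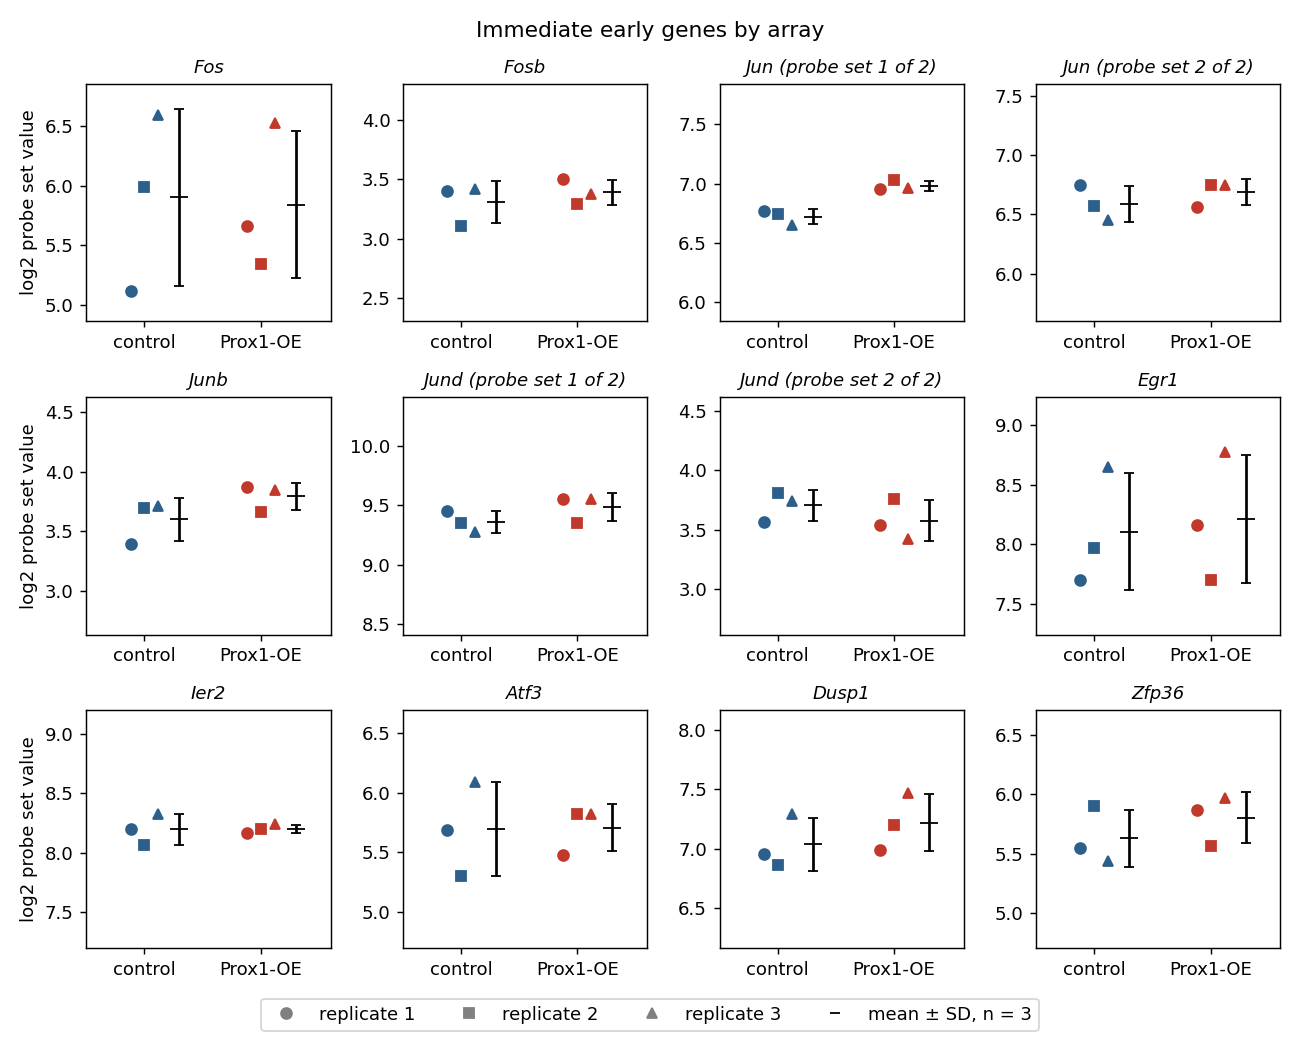
Log2 values of the 12 probe sets of the 10 immediate early genes on each array (marker shape gives the replicate number, colour the group), with the group mean ± SD, n = 3, beside the points. Every panel spans 2 log2 units, so panels can be compared for spread: Fos and Egr1 spread widely in both groups and the first Jun probe set hardly at all.

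Fos, the core subunit of inducible AP-1, read 5.66, 5.34 and 6.53 on Prox1-OE replicates 1, 2 and 3 and 5.12, 5.99 and 6.60 on the controls. Its highest values were on replicate 3 of each group, and the groups overlapped over nearly their whole range. The log2 difference was -0.06 ± 0.40 (SE, limma adjusted p = 0.987), with a 95% interval that runs from 0.51-fold to 1.81-fold, so a change of either sign and moderate size could not be seen with these arrays. The sign also rested on single arrays: the difference was 0.29 without control replicate 3 and -0.45 without control replicate 1. Fosb, a slower relative of Fos, read 3.50, 3.29 and 3.38 in Prox1-OE and 3.40, 3.11 and 3.42 in control, all below the array medians and thus near background. Its log2 difference was 0.08 ± 0.11 (limma adjusted p = 0.910).

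Jun, a partner of Fos proteins in AP-1, had the largest difference of the 10. Its brighter probe set read 6.95, 7.03 and 6.96 in Prox1-OE and 6.77, 6.74 and 6.65 in control, so each Prox1-OE array lay above each control. The log2 difference of 0.26 ± 0.08 is a 1.20-fold level with a 95% interval of 1.05 to 1.37, and it did not pass over all genes (limma adjusted p = 0.690). The other Jun probe set read 6.56, 6.75 and 6.75 against 6.75, 6.57 and 6.45, its groups overlapped, and its log2 difference was 0.10 ± 0.11 (adjusted p = 0.906 over all probe sets). The mean of both probe sets gave 0.18, and the brighter probe set alone gave 0.23 to 0.29 when each array was left out in turn.

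Junb, which often acts against Jun, read 3.87, 3.66 and 3.85 in Prox1-OE and 3.39, 3.70 and 3.71 in control, below the array medians like Fosb. Its log2 difference was 0.19 ± 0.12 (limma adjusted p = 0.784), and control replicate 1 was the low array. Jund, the member of the family that is expressed constitutively in many cells, read 9.55, 9.35 and 9.55 against 9.45, 9.35 and 9.27 from its brighter probe set, a log2 difference of 0.13 ± 0.10 (limma adjusted p = 0.827). Its dimmer probe set read 3.54, 3.76 and 3.42 against 3.56, 3.81 and 3.74 and had the opposite sign (-0.13 ± 0.12).

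Egr1, a zinc finger factor induced through serum response factor, read 8.16, 7.70 and 8.78 in Prox1-OE and 7.70, 7.97 and 8.65 in control. As with Fos, replicate 3 was the highest of each group, and the ranges of both groups nearly coincided. The log2 difference was 0.10 ± 0.30 (limma adjusted p = 0.968; 95% interval 0.66-fold to 1.75-fold), and it was -0.18 without Prox1-OE replicate 3. Ier2, a small nuclear protein of the early response, was tightly held at 8.17, 8.20 and 8.24 against 8.20, 8.07 and 8.33. Its log2 difference of 0.01 had a 95% interval from -0.21 to 0.23. Atf3, a stress-induced factor of the ATF family, read 5.48, 5.82 and 5.82 in Prox1-OE and spread further in control, with 5.69, 5.30 and 6.09. Its log2 difference was 0.01 ± 0.19 (limma adjusted p = 0.995).

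Among the brakes, Dusp1 read 6.99, 7.20 and 7.47 in Prox1-OE and 6.96, 6.86 and 7.29 in control, a log2 difference of 0.18 ± 0.15 (limma adjusted p = 0.839). The difference of Dusp1 was 0.06 without Prox1-OE replicate 3 and 0.09 without control replicate 2, and 0.30 without Prox1-OE replicate 1 and 0.31 without control replicate 3. Zfp36 read 5.87, 5.56 and 5.97 against 5.55, 5.90 and 5.44, a log2 difference of 0.17 ± 0.15 (limma adjusted p = 0.851). The difference of Zfp36 was 0.09 without Prox1-OE replicate 3 and 0.08 without control replicate 3, and 0.29 without Prox1-OE replicate 2 and 0.31 without control replicate 2. The highest control of Zfp36 was replicate 2, unlike that of Dusp1, Fos and Egr1, where it was replicate 3.

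**Figure D2:**
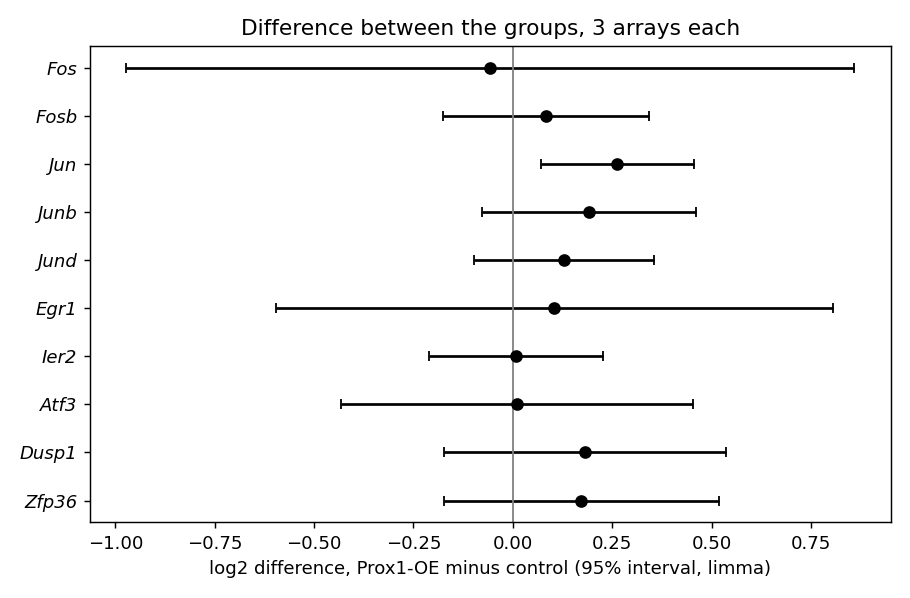
Log2 difference of each gene between Prox1-OE and control (points) with its 95% interval from limma (bars), from 3 arrays a group. The intervals of Fos (-0.97 to 0.86) and Egr1 (-0.60 to 0.80) are the widest, and the interval of Jun (0.07 to 0.45) is the 1 that leaves out 0 before adjustment.

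The genes differed widely in how much they varied within a genotype. The pooled SD within groups was 0.68 for Fos, higher than or equal to that of 99.5% of all genes, and 0.52 for Egr1 (99% of all genes). Between the lowest and the highest of the 6 arrays Fos spanned 2.80-fold and Egr1 2.12-fold. Atf3 (SD 0.31, percentile 94.6), Dusp1 (0.23, percentile 86.4) and Zfp36 (0.23, percentile 85.1) followed. Junb (0.15) and Fosb (0.14) were close to the median of all genes, 0.14, and Jund (0.11), Ier2 (0.09) and Jun (0.05, percentile 5.39) lay below it. Among genes with a mean within 0.5 of their own, which have similar precision, Fos was at percentile 98.6, Egr1 at 99.6 and Jun at 3.87. These values of Jun and Jund are from their brighter probe sets. Their other probe sets had SDs within groups of 0.13 (Jun) and 0.15 (Jund), near the median of all genes.

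**Figure D3:**
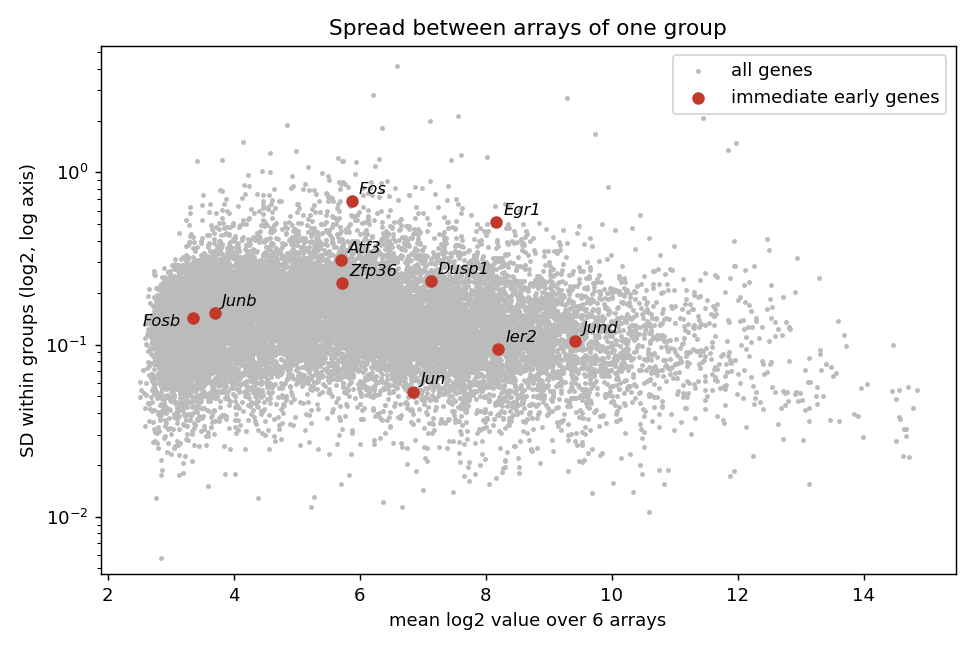
SD within groups (pooled over both groups, log axis) against the mean log2 value over 6 arrays, for 18194 genes in grey and the 10 immediate early genes in red. Fos (0.68) and Egr1 (0.52) lie at the upper edge of the cloud and Jun (0.05, from its brighter probe set) at the lower.

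Fos and Egr1 were high and low on the same arrays. Over the 6 arrays their Pearson r was 0.938 (exact two-sided permutation p = 0.0167) and Spearman's rho 0.829 (p = 0.0583), and r was 0.953 for deviations from the group means. Without the 2 arrays farthest from the median of Fos, r was 0.907. The closest pair of the 45 was Ier2 and Atf3, with r = 0.958 (exact two-sided permutation p = 0.00694), rho = 1 (p = 0.00278, the smallest that 6 arrays can give) and r = 0.805 without the 2 arrays farthest from the median of Ier2, although Ier2 spanned only 1.20-fold. These 2 pairs were picked because their r was highest. After Benjamini-Hochberg adjustment over 45 pairs, the permutation p-values were 0.375 and 0.312 for r and 0.656 and 0.125 for rho. The ranks behind the rho of Ier2 and Atf3 included near ties. Ier2 read 8.20 on Prox1-OE replicate 2 and on control replicate 1, and Atf3 read 5.82 on Prox1-OE replicates 2 and 3. Of the 45 pairs, 33 had a positive r, with a median of 0.335 and a range of -0.64 to 0.958. Jun had r = 0.0056 with the mean of the other members, and Jund (0.152) and Zfp36 (0.158) were also low. For deviations from the group means, r of Jun ran from -0.865 with Egr1 to 0.013 with Jund and was -0.808 with Fos. These within-group values were not tested.

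The mean of the 10 genes over control was 0.30 on Prox1-OE replicate 3, 0.19 on control replicate 3 and between -0.13 and 0.07 on the other 4 arrays. The median of the 10 was 0.25 on Prox1-OE replicate 3 but 0.12 on control replicate 3, as on Prox1-OE replicate 1, and control replicate 3 was the lowest array for Jun, Jund and Zfp36. The 3′ minus 5′ signal of the control probe sets for Gapdh and beta-actin, a measure of RNA degradation, was 0.945 on Prox1-OE replicate 3 and 0.942 on control replicate 3, and 0.913 to 0.986 on the others. The part of RNA quality in the Fos and Egr1 values was not tested. Prox1-OE replicate 1, which had the highest means over control of the macrophage (1.02; 11 of 11 markers measured) and B cell lists (1.24; 7 of 8), read near the middle for Fos and Egr1. Macrophage means were 0.43 and 0.42 on Prox1-OE replicates 2 and 3 and -0.16 to 0.18 on the controls, so they split by genotype as the brighter Jun probe set did. B cell means were 0.23 and 0.47 against -0.03 to 0.05, with 5 of the 7 B cell markers below the array medians on average. Beta cell (-0.52, -0.68 and -0.81 on Prox1-OE replicates 1, 2 and 3 against 0.27, -0.01 and -0.25; 8 of 10 markers measured) and lymphatic endothelial means (0.85, 0.23 and 0.44 against -0.10, -0.04 and 0.15; 4 of 5) also split by genotype, as did acinar means by a narrow margin (-0.09 to -0.03 against -0.01 to 0.02). The part of these cells in the Jun values was not tested.

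**Figure D4:**
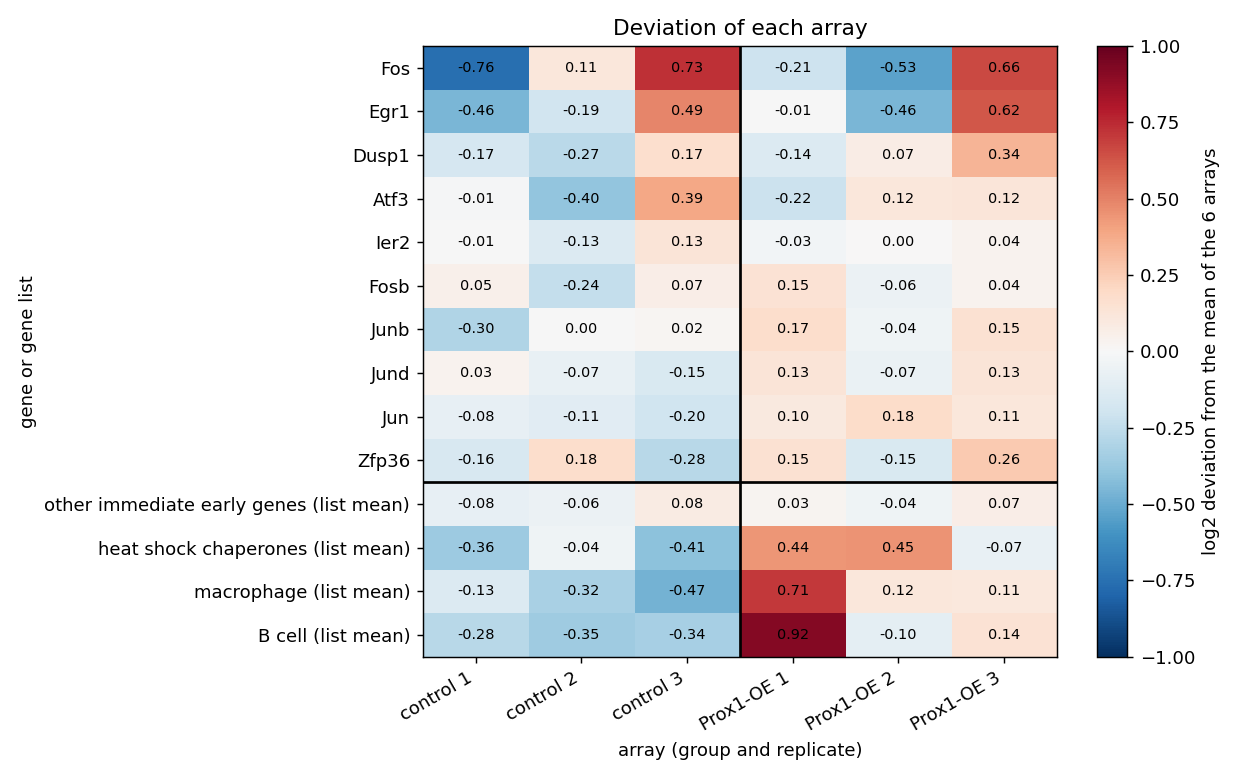
Log2 deviation of each array from the mean of the 6 arrays, for the 10 genes (above the line) and the means of 4 gene lists (below it), with controls on the left. Fos and Egr1 are high on replicate 3 of both groups, whereas heat shock chaperones are high on Prox1-OE replicates 1 and 2 and macrophage and B cell genes on Prox1-OE replicate 1.

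Heat shock chaperones, another class of genes that stress induces, had a different pattern over arrays. Of 12 measured, 0 passed over all genes, 5 were higher at an unadjusted p under 0.05 (2.94% of all genes) and the median log2 difference was 0.51. Their mean over control was 0.71 and 0.72 on Prox1-OE replicates 1 and 2 and 0.20 on replicate 3, against -0.09, 0.23 and -0.14 on the controls. The array with the highest Fos was thus the lowest of each group for chaperones. Over all arrays the Pearson r with the chaperone mean was only -0.361 for Fos, -0.329 for Egr1 and -0.131 for the members' mean, and it was not tested. Hspb1, a small chaperone, read 11.16, 10.74 and 10.06 in Prox1-OE and 9.05, 9.45 and 8.57 in control, a log2 difference of 1.63 ± 0.30 (limma adjusted p = 0.562), and its lowest array in each group was replicate 3. Hsp90aa1, the inducible HSP90, differed by 0.91 ± 0.15 (adjusted p = 0.451), Hspa4l by 1.14 ± 0.25 (adjusted p = 0.690) and Hspa1b, an inducible HSP70, by 0.70 ± 0.25 (adjusted p = 0.700), all on the log2 scale by limma. Hspa4l depended on the probe set, with 0.51 for the mean of all and 0.38 for a probe set specific to 1 transcript, and Hspa1b was 0.43 without Prox1-OE replicate 2.

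The signalling proteins and factors upstream of the set were measured by 14 of 19 listed genes. None passed over all genes, 2 were higher at an unadjusted p under 0.05 (2.94% of all genes) and 0 lower (3.7%), and the groups of 5 did not overlap, all of them higher (5.05% of all genes), with a median log2 difference of 0.02. These 5 were Srf, Elk4 and, named after their values were seen, the kinase genes Map2k1 (0.21), Map2k4 (0.07) and Mapk14 (0.06). Srf, the serum response factor itself, read 6.31, 6.07 and 6.02 in Prox1-OE and 5.79, 5.94 and 5.87 in control, a log2 difference of 0.26 ± 0.10 (limma adjusted p = 0.730). Elk4, a ternary complex factor that binds beside Srf, read 8.73, 8.53 and 8.61 against 8.40, 8.38 and 8.22, a log2 difference of 0.29 ± 0.10 (adjusted p = 0.690). The other probe sets of these genes did not share the difference: it was -0.10 for the other probe set of Srf and -0.08 to 0.01 for the 3 others of Elk4.

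Of 16 measured AP-1 and ATF partners, 12 had a positive difference (46.2% of all genes), 0 passed over all genes and 1, Jdp2, was higher at an unadjusted p under 0.05 (2.94%), with a median of 0.02. Jdp2, a repressor that pairs with Jun, read 4.66, 4.61 and 4.39 in Prox1-OE and 4.34, 4.06 and 4.30 in control. The log2 difference was 0.32 ± 0.11 (limma adjusted p = 0.702). Its controls lay below the array medians, near background, and its dimmer probe set, lower still, differed by -0.25. Of 41 other immediate early genes, 25 were positive (46.2% of all genes) and 16 negative, 0 passed, 1 was higher at an unadjusted p under 0.05 (2.94%), a share near that of all genes, and the median was 0.04. That gene was Csrnp1, a nuclear factor, which read 5.75, 5.72 and 5.78 against 5.44, 5.61 and 5.52 (log2 difference 0.23 ± 0.09, limma adjusted p = 0.721), while its dimmer probe set differed by -0.02 and the mean of both by 0.11. Sgk1, a kinase gene induced by serum and glucocorticoids and chosen after its values were seen, had the highest SD within groups of that list (0.82). It read 9.45, 9.94 and 10.45 in Prox1-OE and 9.11, 9.56 and 11.10 in control, again highest on replicate 3 of each group.

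Of the 9 other MAP kinase phosphatases 4 were positive and 5 negative, and 0 passed at either threshold. Dusp2 had the smallest p, with 6.02, 5.76 and 5.99 in Prox1-OE and 5.54, 5.62 and 5.86 in control (log2 difference 0.25 ± 0.12, limma adjusted p = 0.763). Of the 11 relatives and target mRNAs of Zfp36, 0 passed and 1 was lower at an unadjusted p under 0.05 (3.7% of all genes). It was Cxcl1, a neutrophil chemokine whose mRNA Zfp36 destabilizes. From a probe set that can bind related transcripts, Cxcl1 read 6.61, 6.73 and 6.67 against 6.88, 6.83 and 7.01. The log2 difference was -0.24 ± 0.09 (limma adjusted p = 0.721). The dimmest probe set of Cxcl1, specific to 1 transcript, was higher in Prox1-OE by 0.28, also without overlap (limma adjusted p = 0.801 over all probe sets). The remaining probe set differed by -0.095, with overlap, so the direction depended on the probe set. Nab1, a corepressor of Egr1, differed by 0.04 ± 0.09 from its brightest probe set (limma adjusted p = 0.957). Its other probe sets had the opposite sign, -0.04 and -0.36, and the dimmest read 3.49, 3.67 and 3.58 in Prox1-OE and 3.90, 4.03 and 3.89 in control, without overlap (adjusted p = 0.772 over all probe sets).

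The genes outside the set whose values followed its mean most closely over the 6 arrays were taken from 459 with a mean of at least 6 and an SD of at least 0.3. That mean was not scaled by gene, so Fos and Egr1, which spread most, weighed most in it. With 6 points and this many candidates, high correlations are given as a description. They were 1810062G17Rik (Pearson r = 0.954), Hmgcs1 (0.918), Cd59a (0.910), Klf2 (0.899), Idi1 (0.894), Mt1 (0.888), Topbp1 (0.878) and Ctdspl2 (0.861). Klf2 is itself an immediate early factor and read 6.80, 6.39 and 7.24 in Prox1-OE and 6.39, 6.48 and 6.67 in control. Hmgcs1 and Idi1 encode enzymes of sterol synthesis. Hmgcs1 read 9.10, 8.83 and 9.61 against 8.99, 8.97 and 9.59, and Idi1 read 7.82, 7.57 and 8.41 against 7.60, 7.86 and 8.53. Both were highest on replicate 3 of each group, as the members' mean was. They were picked for following that mean, so the shared pattern is no separate observation. Between the genotypes their log2 differences were 0.00 ± 0.23 and -0.07 ± 0.27. Mt1, a metallothionein, read 12.04, 12.01 and 12.34 in Prox1-OE and 11.40, 11.75 and 12.12 in control, a log2 difference of 0.37 ± 0.18 (limma adjusted p = 0.763). The difference of Mt1 was 0.73 from a probe set specific to 1 transcript, 0.20 without control replicate 1 and 0.56 without control replicate 3.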

How the data were processed

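Whole pancreas RNA (100 ng per sample, per the labels' protocols) was profiled on 6 Affymetrix 3′ arrays, 3 per genotype. The authors deposited log2 probe set summaries, and the submitters' processing notes name RMA and Partek 6.5 without their settings. RMA makes arrays share a distribution and compresses dim values. The table held 45101 probe sets, of which 64 Affymetrix controls were left out of the tests. The platform annotation gave 34958 probe sets 1 symbol, 932 several and 9211 none, and 34754 of the named ones matched a RefSeq gene of GRCm38.p6. The probe set with the highest mean stood for a gene.

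limma 3.58.1 (R 4.3.3; lmFit, then eBayes) compared the genotypes, two-sided and without covariates, with Benjamini-Hochberg adjustment at 0.05 over all genes, or over all probe sets where single probe sets are given. The fit was tested on simulated data. SE and 95% intervals are from limma. Precision is limited by the small number of arrays. The members and gene lists were chosen with earlier results of these data known. Besides the members, the text names genes of each list at an unadjusted p under 0.05 (at most 4), otherwise the one with the smallest p, and the 8 genes most like the members' mean. Srf, Elk4, Cxcl1, Jdp2, Csrnp1, Nab1 and Hspa4l were also read from their other probe sets. Alternatives covered the choice of probe set, a filter on dim values, normalization, eBayes settings, array weights, a replicate block and leaving out arrays.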

Additional observations from a re-analysis of the deposited data

How the results depend on the processing

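Under every alternative run, 0 of the immediate early genes passed the threshold, and the lowest adjusted p of any of them was 0.597. Of 158 values of single members under alternatives, 143 kept their direction and 15 reversed. Jun, Junb, Dusp1 and Zfp36 stayed positive throughout, and the median of the members ran from 0.06 to 0.22 when single arrays were left out. The reversed values were of Fos, Fosb, Jund, Egr1, Ier2 and Atf3, and the cause was not tested. Outside the set, Cxcl1, Jdp2, Srf and Elk4, whose differences were larger than their SE, reversed when another probe set was read.

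With the mean of all probe sets, the log2 differences were -0.0011 for Jund, -0.12 for Nab1, -0.063 for Mapk14, 0.089 for Hmgcs1 and -0.024 for Topbp1. With probe sets specific to 1 transcript preferred they were -0.25 for Jdp2, 0.28 for Cxcl1, -0.10 for Srf, -0.0074 for Elk4 and 0.086 for Hmgcs1. Quantile normalization again gave -0.020 for Ier2 and median centring 0.0086 for Hmgcs1. Array weights gave 0.056 for Fos, 0.075 for Hmgcs1 and 0.026 for Idi1. Without Prox1-OE replicate 1 and control replicate 3 together, an alternative chosen after seeing the data, 1 gene passed in place of 5, and Fos (0.38), Hmgcs1 (0.25) and Idi1 (0.26) were positive.

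When each array was left out in turn, 0 to 4 genes and 0 to 8 probe sets passed. The log2 differences then ran from -0.45 to 0.29 for Fos, -0.18 to 0.37 for Egr1, -0.18 to 0.21 for Atf3, -0.057 to 0.073 for Ier2, -0.016 to 0.14 for Fosb, -0.38 to 0.61 for Sgk1, -0.22 to 0.20 for Hmgcs1, -0.30 to 0.20 for Idi1, -0.088 to 0.31 for 1810062G17Rik, -0.018 to 0.39 for Topbp1 and -0.092 to 0.33 for Ctdspl2. The correlation of Fos and Egr1 ran from 0.916 to 0.979.

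With the replicate block 2 genes and 2 probe sets passed in place of 5 and 5, and no call of a member changed. Deviations of same-numbered arrays correlated at 0.04, 0.14 and 0.11 over all genes, and each array correlated best with its own number in the other group. Deviations from a group mean are tied to each other, so these correlations are not independent, and pairing was not tested. The labels do not say that a number marks a shared litter or day. In the fit with the replicate block the SE of Fos was 0.21 in place of 0.40.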
